A study of Mus musculus with 7 samples.

Results

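The acute phase protein genes Saa1, Saa2, Saa3, Saa4, Orm1, Orm2, Hp, Hpx, Lcn2 and Crp were followed through the accessible chromatin of young and aged mouse liver. Any accessible region that overlapped the body of 1 of these 10 genes (GENCODE M21 annotation), or lay within 10000 bp of it, was counted as a region of that gene, and a region near several of them went to the one with the nearest transcription start site (TSS). This gave 36 of the 55680 regions of the count table. Crp held 7 of them, Hp 6, Hpx 5, Orm2 4, Saa4 4, Saa1 3, Lcn2 3, Orm1 2 and Saa3 2. Saa2 held none.

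Accessibility was measured by ATAC-seq, in which a transposase cuts and tags exposed DNA in isolated nuclei. The liver samples came from C57BL/6N mice, 3 samples at 3 months of age (young) and 4 at 18 months (aged), with no treatment or transgene, and the methods name male mice. According to the submitters' design text, 3 aged animals gave the 4 aged samples, because 2 lobules of one animal were taken, and it does not name them, whereas the methods count 4 biological replicates. P-values across the ages may therefore partly measure spread between samples of the same animal. Whole tissue was used, so fewer cells of a type and less open chromatin per cell cannot be told apart.

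Acute phase proteins are plasma proteins that hepatocytes secrete in changed amounts during infection, injury or inflammation. Interleukin 6 acts through its receptor and the transcription factor STAT3, and interleukin 1 through NF-kappa-B and C/EBP factors, to induce the genes in the liver. The proteins bind lipid, haem, haemoglobin, iron carriers or microbial surfaces, and the serum level of several is used as a clinical measure of inflammation.

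The promoters show how alike some of these genes are and what letters they share. The bases before the TSS of Saa1, Saa2, Saa3, Orm2 and Crp are given from RefSeq, mouse build GRCm38.p6, in the direction of transcription. The first pair is shown because reads from Saa1 and Saa2 can be mistaken for each other. Those of Saa3, Orm2 and Crp are shown to compare the letters of C/EBP sites (TTNNGNAA on either strand) and of the TATA box (TATAAA), both in capitals.
Saa1, chr7:46743040-46743230, minus strand, bases -250 to -60: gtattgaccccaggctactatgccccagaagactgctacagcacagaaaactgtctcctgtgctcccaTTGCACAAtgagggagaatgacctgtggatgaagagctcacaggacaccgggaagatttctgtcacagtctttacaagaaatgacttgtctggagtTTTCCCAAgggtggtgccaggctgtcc
Saa2, chr7:46751583-46751773, plus strand, bases -250 to -60: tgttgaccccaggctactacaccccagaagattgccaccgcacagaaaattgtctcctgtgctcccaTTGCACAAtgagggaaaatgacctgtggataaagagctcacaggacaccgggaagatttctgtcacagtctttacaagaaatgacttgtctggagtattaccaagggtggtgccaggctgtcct
Saa3, chr7:46715736-46715926, minus strand, bases -250 to -60: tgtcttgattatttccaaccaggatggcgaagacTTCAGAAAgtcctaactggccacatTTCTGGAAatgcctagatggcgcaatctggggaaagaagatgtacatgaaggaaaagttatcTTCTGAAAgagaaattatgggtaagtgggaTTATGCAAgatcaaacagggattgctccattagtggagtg
Orm2, chr4:63362299-63362448, plus strand, bases -150 to -1: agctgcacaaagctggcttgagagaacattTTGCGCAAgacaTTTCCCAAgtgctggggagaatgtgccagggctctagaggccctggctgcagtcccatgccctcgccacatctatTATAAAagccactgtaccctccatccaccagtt
Crp, chr1:172697906-172698055, plus strand, bases -150 to -1: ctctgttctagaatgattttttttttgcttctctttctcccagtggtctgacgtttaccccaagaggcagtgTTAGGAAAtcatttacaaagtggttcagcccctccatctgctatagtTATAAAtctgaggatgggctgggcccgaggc

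The windows of 250 bases before the TSS were searched on both strands for 7 motifs in the 8 of 10 genes that the promoter table held. Hp and Orm1 were not matched. The C/EBP letters stood in 8 of 8, against 34.05% of 21263 protein-coding promoters. The TATA box stood in 2 of 8, Orm2 and Crp, against 11.6% of promoters, and the glucocorticoid receptor letters (ACANNNTGT) in Lcn2 alone, against 5.19%. No window held the STAT letters (TTCNNNGAA, 6.58% of promoters), the interleukin 6 type 2 element (CTGGGAA, 9.05%), the NF-kappa-B letters (GGANTTTCC, 1.08%) or the HNF1 letters (GTTAATNAT, 0.687%). At such low shares 8 windows cannot show that these sites are lacking, and sites with other letters would not be found. Saa3 held the most C/EBP matches, at 4 places that begin between bases -216 and -99.

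Saa1 and Saa2 were 94.8% identical over 251 aligned columns of the promoter table, and Orm2 and the neighbouring Orm3 were 85.9% identical over 255. The accessible region at the Saa1 promoter had a copy elsewhere in GRCm38, 97.8% identical over 1245 bp, that begins at chr7:46751585 and covers the promoter of Saa2. The authors kept reads of sufficient mapping quality only, so reads that fitted both promoters equally well were not counted. The level at the Saa1 promoter, and the lack of any region at Saa2, are uncertain for this reason. No other of the 36 regions had a copy of at least 95% identity over at least 80% of its length.

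The counts in regions summed to between 4474652 and 25461110 per sample, and the 36 regions held 7 to 1838 counts each per sample. All 15 hepatocyte markers that were checked had a region at their promoter, against 8 of 13 markers of stellate, endothelial and bile duct cells, 0 of 7 lymphocyte markers, 1 of 12 Kupffer cell and macrophage markers (Clec4f), 1 of 13 neutrophil markers (Elane) and 1 of 8 markers of other tissues. Among all regions, 5.74% changed with age by edgeR's quasi-likelihood test (adjusted p under 0.05), 1360 towards more and 1838 towards less accessibility. This split turned to 543 and 2931 when samples were scaled by their total counts, and to 2760 and 1931 in DESeq2. Young replicate 3 and aged replicate 4 stood apart from the other samples of their age at many acute phase genes. Their values are given for the promoter region of each of the 10 genes that had one.

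Of the 36 regions, 0 became more and 1 (2.78%) became less accessible in aged liver by edgeR's test (5.74% of all regions changed and 3.3% became less accessible), and DESeq2 also called 0 more and 1 less accessible. At an unadjusted p under 0.05 there were 5 regions, 2 higher and 3 lower in aged liver, whereas 24.6% of all regions passed that limit. Log2 fold changes of the 36 regions had a median of -0.03 (15 above 0 and 21 below), and those of all regions one of -0.04. Aged samples all lay above the young ones in 2 regions, against 10.2% of all regions, and all below them in 3, against 11.6%. The counts depended on the libraries that stood apart: without aged replicate 4, 0 regions became more and 6 less accessible (1630 and 2600 of all regions), without young replicate 3 it was 1 and 0 (1056 and 1595), and without both 1 and 5 (2095 and 3295). It was 0 in both directions without any 1 of young replicates 1 and 2 and aged replicates 1 and 3, where few of all regions passed either (55 and 133, 196 and 250, 129 and 273, and 176 and 475 more and less accessible).

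**Figure D1:**
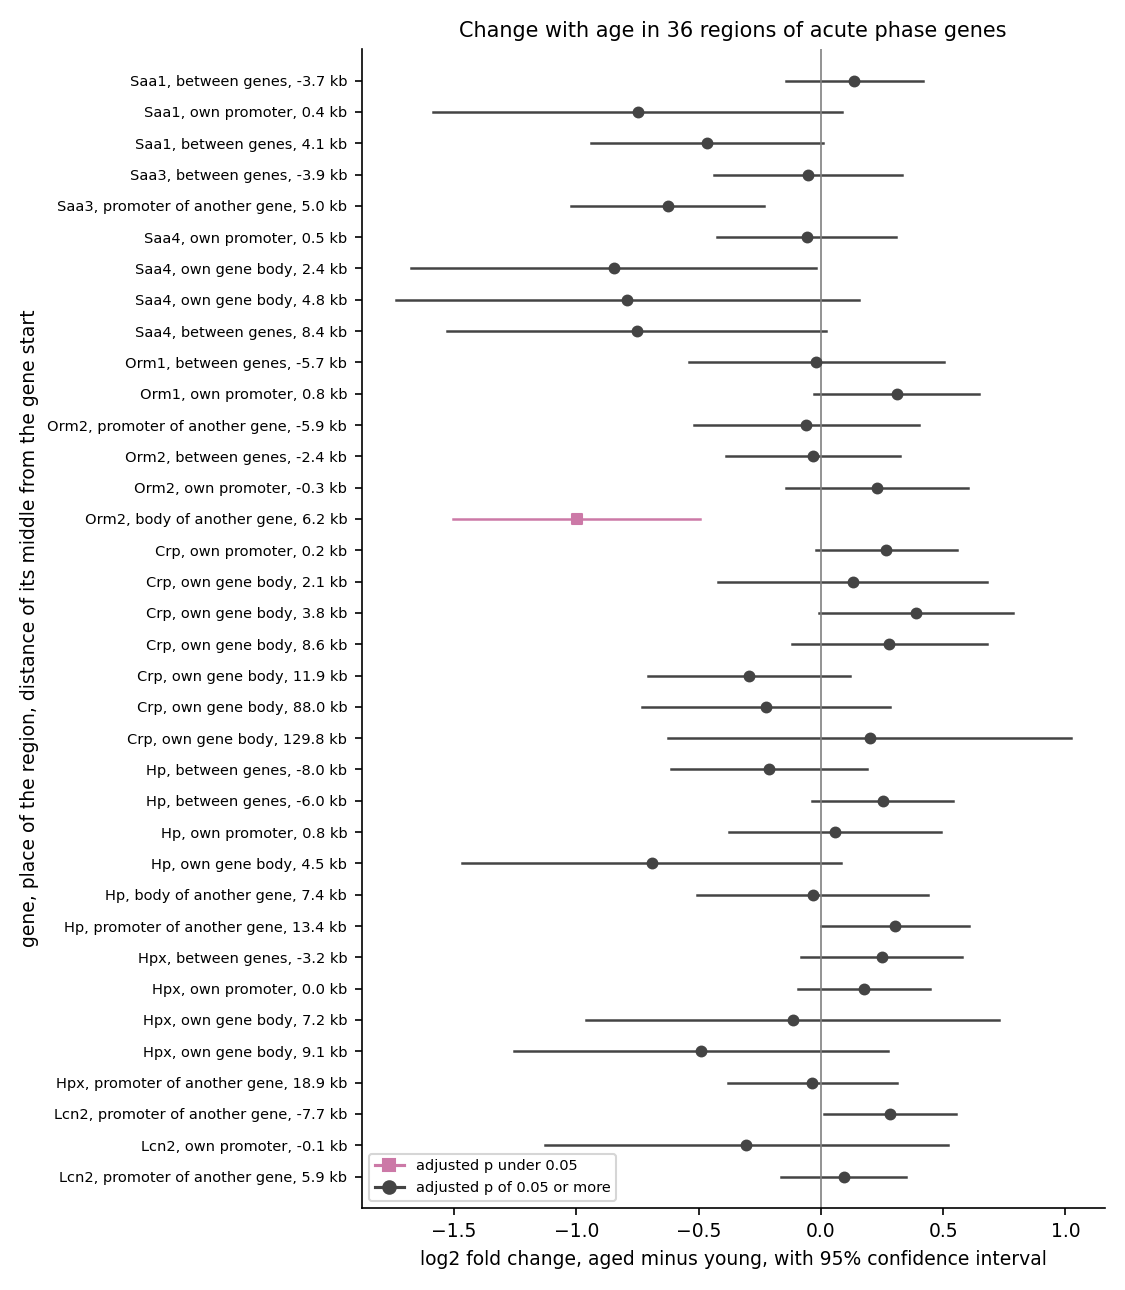
Log2 fold change of each of the 36 regions between aged (n = 4) and young (n = 3) liver, in which dots are edgeR estimates, lines their 95% confidence intervals and negative values less accessible in aged liver. The label gives the gene, where the region lies and the distance of its middle from the gene's TSS. The region past the end of Orm2 alone has an adjusted p under 0.05, and the widest intervals are those of regions at Saa1, Saa4, Hp, Hpx, Lcn2 and, far inside the gene, Crp.

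The region that changed lay at chr4:63368455-63368904, downstream of Orm2 and inside an intron of the neighbouring gene Akna, which encodes an AT-hook protein. It had 6.85, 6.80 and 7.07 CPM (counts scaled by library size and TMM factor) in young replicates 1 to 3 and 4.13, 3.33, 3.03 and 3.05 CPM in aged replicates 1 to 4. All aged samples were lower than all young ones, and the spread within each age was small. The log2 fold change was -0.998 ± 0.24 (SE; edgeR, adjusted p = 0.0285). It is a weak region of 13 to 180 counts per sample, and the call was lost (edgeR, adjusted p 0.0529 to 0.0989, log2 fold change -1.13 to -0.957) without any 1 of young replicates 1, 2 or 3 or aged replicates 1 or 3, and with offsets on mean abundance (log2 fold change -0.77, edgeR, adjusted p = 0.117). Among the 6 pairs of aged samples summed as 1 animal, it was lost for replicates 1 and 3 (edgeR, adjusted p = 0.0590) and 2 and 3 (edgeR, adjusted p = 0.0501).

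The other regions with no overlap of the ages did not pass the test. The promoter of Saal1, a gene next to Saa3 (chr7:46710253-46711047), had 11.8, 11.5 and 11.3 CPM in young and 8.17, 7.45, 7.70 and 6.49 CPM in aged liver. It was the region nearest to the threshold, with a log2 fold change of -0.63 ± 0.18 (SE; edgeR, adjusted p = 0.0591), and it passed with total counts and with limma voom. Within the Crp gene, a region at chr1:172709509-172710370 had 9.53, 9.64 and 11.02 CPM in young and 6.85, 8.63, 8.64 and 8.78 CPM in aged samples. Aged replicate 1 was the lowest there, and the log2 fold change was -0.29 (edgeR, adjusted p = 0.368). Another Crp region, at chr1:172701431-172702244, was higher in all aged samples, with 10.6, 14.8 and 15.1 CPM in young and 15.5, 17.5, 21.9 and 16.4 CPM in aged liver. The lowest aged and the highest young value nearly met, and its log2 fold change was 0.39 (edgeR, adjusted p = 0.213). The last of the 5 lay before the Hpx gene at chr7:105603066-105603589, with 18.0, 18.7 and 13.8 CPM in young and 19.9, 21.97, 19.4 and 19.7 CPM in aged samples (log2 fold change 0.25, edgeR, adjusted p = 0.338).

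Of the serum amyloid A genes, which encode apolipoproteins of high density lipoprotein, Saa1 and Saa4 had a region at the promoter, and the spread was wide at Saa1. The Saa1 region (chr7:46741985-46743230) had 11.5, 7.60 and 25.2 CPM in young and 6.41, 5.49, 6.54 and 14.6 CPM in aged liver. Young replicate 3 and aged replicate 4 were the high samples and the ages overlapped. The log2 fold change was -0.75 ± 0.39 (SE; edgeR, adjusted p = 0.254), with a 95% confidence interval of -1.58 to 0.09. Leaving out 1 sample gave -1.18 (aged replicate 4; edgeR, adjusted p = 0.0575) to -0.15 (young replicate 3; edgeR, adjusted p = 0.835), and none of these 7 fits passed the test. Without both it was -0.60 (edgeR, adjusted p = 0.130). The replicate block, a fit that drops aged replicate 4 and takes samples of the same number as a block, gave -1.07 and passed (edgeR, adjusted p = 0.0246). Counts there ran from 28 to 201 per sample.

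Saa4, the member of the family that the liver makes constitutively, had a promoter region (chr7:46731384-46732896) with little spread. Its values were 17.7, 15.0 and 23.0 CPM in young and 17.7, 16.1, 19.1 and 17.4 CPM in aged samples. The aged samples lay within the range of the young ones, and the log2 fold change was -0.06 (edgeR, adjusted p = 0.866). Within the gene and past its end the picture differed. A region in the gene body (chr7:46729401-46730999) had 17.9, 12.9 and 25.3 CPM in young and 6.06, 5.10, 7.70 and 21.1 CPM in aged samples. The region at its 3′ end (chr7:46726798-46728799) had 13.7, 12.1 and 37.7 CPM in young and 7.99, 4.71, 10.97 and 22.8 CPM in aged samples. Beyond the gene, a region at chr7:46724003-46724432 had 7.87, 5.82 and 10.03 CPM in young and 2.37, 3.53, 3.97 and 8.40 CPM in aged liver. In these 3 regions aged replicate 4 reached the young values while aged replicates 1 to 3 lay below every young sample. Their log2 fold changes were -0.85, -0.79 and -0.75 (edgeR, adjusted p = 0.194, 0.289 and 0.216). Without aged replicate 4 they were -1.55, -1.37 and -1.29 and passed the test (edgeR, adjusted p = 0.00525, 0.0448 and 0.0210). Without young replicate 3 they were -0.57, -0.12 and -0.55 and did not pass (edgeR, adjusted p = 0.456, 0.897 and 0.441). Without both samples the regions in the gene body and beyond the gene passed, at -1.29 and -1.11 (edgeR, adjusted p = 0.00626 and 0.0347), while the 3′ end, at -0.72, did not (edgeR, adjusted p = 0.0967).

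Saa3, which macrophages and fat cells express as well as inflamed liver, had no region at its TSS. Of its 2 regions 1 was the Saal1 promoter and the other lay upstream of the gene (chr7:46718886-46720325), where the ages overlapped (log2 fold change -0.05, edgeR, adjusted p = 0.892). Both remaining Saa1 regions lay between genes. The one upstream of the gene (chr7:46745837-46747510) had 26.8, 28.4 and 26.8 CPM in young and 28.3, 27.1, 29.6 and 35.4 CPM in aged samples. Its log2 fold change was 0.14 (edgeR, adjusted p = 0.553). The one past the 3′ end of the gene (chr7:46737674-46740052) had 23.3, 20.6 and 36.8 CPM in young and 17.7, 15.9, 15.6 and 26.6 CPM in aged samples, with young replicate 3 and aged replicate 4 again the highest. The ages overlapped, and the log2 fold change was -0.46 ± 0.22 (SE; edgeR, adjusted p = 0.214). It was -0.18 without young replicate 3 and -0.67 without aged replicate 4, neither past the test (edgeR, adjusted p = 0.643 and 0.0588). With the replicate block, a fit that also drops aged replicate 4, it was -0.64 and passed (edgeR, adjusted p = 0.0469).

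Orm1 and Orm2 encode orosomucoids, carrier glycoproteins that bind drugs and hormones in plasma. The Orm1 promoter (chr4:63343684-63347073) had 66.6, 57.8 and 93.6 CPM in young and 83.3, 90.2, 78.0 and 105 CPM in aged liver. Young replicate 3 lay among the aged samples, and the log2 fold change was 0.31 ± 0.16 (SE; edgeR, adjusted p = 0.244). Without young replicate 3 it was 0.54 and passed the test (edgeR, adjusted p = 0.0458). With offsets on mean abundance it was 0.0056 (edgeR, adjusted p = 0.992). The Orm2 promoter (chr4:63361718-63362644) had 17.7, 17.2 and 20.7 CPM in young and 21.7, 23.5, 15.2 and 25.1 CPM in aged samples, which overlapped (log2 fold change 0.23, edgeR, adjusted p = 0.444). The Orm1 region resembled the Orm2 locus at 85.0% identity over 3447 aligned bp, below the limit set for a near-identical copy.

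Crp encodes C-reactive protein, a pentraxin that binds phosphocholine on microbes and damaged cells. Its promoter (chr1:172697323-172699119) had 32.0, 39.2 and 33.4 CPM in young and 39.4, 37.1, 41.1 and 50.9 CPM in aged liver. The ages overlapped, since young replicate 2 lay among the aged samples, and the log2 fold change was 0.27 ± 0.13 (SE; edgeR, adjusted p = 0.238). It was 0.09 with offsets on mean abundance and 0.15 with total counts (edgeR, adjusted p = 0.782 and 0.501). Of the 7 Crp regions 6 lay in the annotated gene body, and 5 of the 7 had a log2 fold change above 0. The annotated gene is long (chr1:172698055-172833031). Its regions at chr1:172785717-172786408 and chr1:172827558-172828065 lay 87662 and 129503 bp from the Crp TSS. The latter was nearer to the TSS of Apcs.

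Haptoglobin (Hp) binds free haemoglobin and hemopexin (Hpx) binds free haem. The Hp promoter (chr8:109576860-109579927) had 45.7, 46.1 and 72.3 CPM in young and 39.8, 60.0, 50.9 and 75.2 CPM in aged samples. The ages overlapped entirely, and the log2 fold change of 0.06 (edgeR, adjusted p = 0.892) turned negative with total counts and with offsets on mean abundance. The Hpx promoter (chr7:105599226-105601099) had 49.5, 42.9 and 58.7 CPM in young and 52.1, 58.8, 54.2 and 61.0 CPM in aged liver (log2 fold change 0.18, edgeR, adjusted p = 0.413). Both genes had a wide-spread region at the 3′ end. That of Hp (chr8:109572807-109576524), which also overlaps the neighbouring gene Txnl4b, had 63.4, 58.7 and 160.3 CPM in young and 39.4, 44.1, 39.5 and 105 CPM in aged samples. That of Hpx (chr7:105590187-105591794) had 27.7, 9.83 and 34.0 CPM in young and 11.6, 13.7, 13.8 and 26.5 CPM in aged samples. Young replicate 3 and aged replicate 4 were the highest of their age in both. The log2 fold change at the Hp 3′ end was -0.69 (edgeR, adjusted p = 0.256). Without aged replicate 4 it was -1.17 and passed the test (edgeR, adjusted p = 0.0268), and without young replicate 3 it was -0.07. Without both it was -0.57 and passed (edgeR, adjusted p = 0.0112). That at the Hpx 3′ end was -0.49 (edgeR, adjusted p = 0.425). It was -0.14 without young replicate 3, -0.90 without young replicate 2 and -0.83 without aged replicate 4, and did not pass in any of these (edgeR, adjusted p = 0.859, 0.1002 and 0.128).

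Lcn2 encodes lipocalin 2, which withholds iron from bacteria by binding their siderophores. Its promoter (chr2:32387249-32389379) had 37.3, 21.2 and 36.3 CPM in young and 16.3, 14.5, 14.2 and 54.1 CPM in aged samples. Aged replicate 4 was the highest of all 7 samples and aged replicates 1 to 3 the lowest. The log2 fold change was -0.30 ± 0.38 (SE; edgeR, adjusted p = 0.669). Without aged replicate 4 it was -1.04 and passed the test (edgeR, adjusted p = 0.0110), and without any other single sample it was -0.54 to -0.13 and did not. The other Lcn2 regions were the promoters of the neighbouring genes 1110008P14Rik and Ptges2, with log2 fold changes of 0.09 and 0.28, and they showed little spread within an age.

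**Figure D2:**
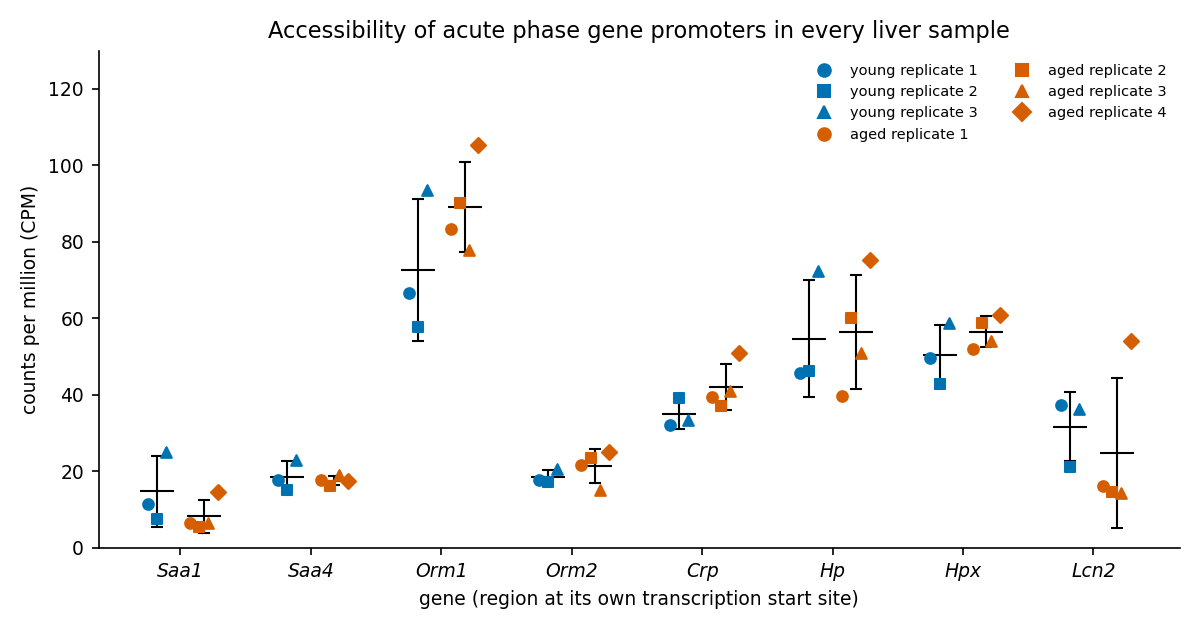
CPM of the region at the TSS of the 8 genes that had one, for every young (blue) and aged (orange) sample, with the mean as a horizontal line and 1 SD as the error bar (n = 3 and n = 4). Symbols mark the replicate. Young and aged samples overlap at all 8 promoters, and aged replicate 4, at 54.1 CPM, stands above the other aged samples at Lcn2.

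None of the 8 own promoters passed the test (edgeR, adjusted p 0.238 to 0.892), against 6.54% of all promoter regions, and DESeq2 called 0 and an unadjusted p under 0.05 gave 0. Their median log2 fold change was 0.12, that of all promoter regions 0.09, and 5 of 8 were above 0. Per kb of region length, the Hpx promoter was the highest in young liver at 26.9 ± 4.24 CPM per kb (SD, n = 3). Orm1 followed at 21.4 ± 5.49, Orm2 at 19.98 ± 2.07, Crp at 19.4 ± 2.13 and Hp at 17.8 ± 4.97 CPM per kb. Lcn2 at 14.8 ± 4.24, Saa4 at 12.3 ± 2.70 and Saa1 at 11.8 ± 7.40 CPM per kb came last. Each neighbour in this order differed by less than the larger of both SDs. In aged liver the ends of the order were the same genes, Hpx at 30.2 ± 2.18 and Saa1 at 6.64 ± 3.43 CPM per kb (SD, n = 4). There the steps from Hpx to Orm1 and from Saa4 to Saa1 were larger than the SDs, and the other steps were not. The Saa1 level is uncertain, since reads that fitted Saa1 and Saa2 equally well were not counted. The width of the regions also differed, from 927 bp at Orm2 to 3390 bp at Orm1, so this order between genes is only a description.

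The spread between samples of one age was wide at some of these genes. The SD of log2 CPM within an age had a median of 0.27 over the 36 regions and 0.28 over all regions, but 9 of the 36 (25.0%) lay above the 90th percentile of all regions and 7 above the 95th. These 9 were 3 regions of Saa4, 2 of Hpx, and 1 each of Saa1, Hp, Lcn2 and Crp. Young replicate 3 was the highest young sample in 8 of the 9 and aged replicate 4 the highest aged sample in 8. This description was chosen after the values were seen and carries no test.

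**Figure D3:**
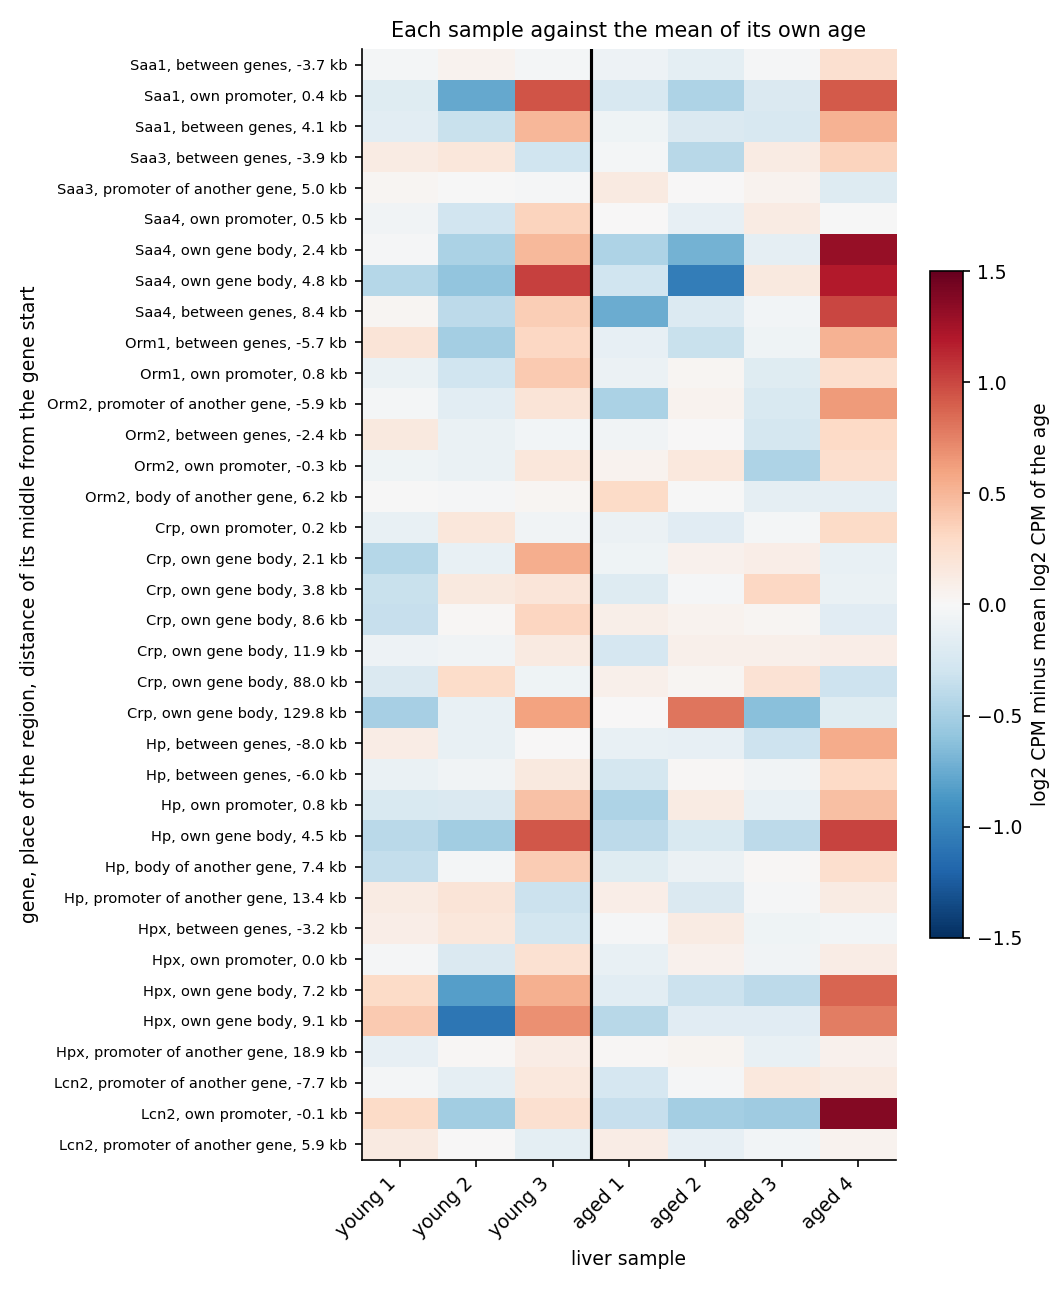
Log2 CPM of each sample minus the mean of its own age, for the 36 regions (rows, labelled by gene, place and distance from the TSS) and 7 samples (columns), with red above and blue below the mean. The columns of young replicate 3 and aged replicate 4 are mostly red, most deeply at Saa1, Saa4, the 3′ ends of Hp and Hpx and the Lcn2 promoter.

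Counted over all samples alike, young replicates 1 to 3 were the highest of their age in 5, 6 and 25 of the 36 regions. Aged replicates 1 to 4 were the highest in 4, 2, 5 and 25. Among all regions the young shares were 32.2%, 30.2% and 37.6% and the aged shares 21.8%, 27.2%, 21.04% and 29.9%. At these genes young replicate 3 and aged replicate 4 were therefore the leading samples in 69.4% of regions each. Both led together in 18 regions, or 50%, and in 8.54% of all regions. The 36 regions are neighbours at a few loci and are not independent of each other.

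The mean log2 CPM over the 8 promoters had the same leading sample in each age. It was 4.92, 4.69 and 5.31 in young replicates 1 to 3 and 4.76, 4.81, 4.74 and 5.38 in aged replicates 1 to 4. Young replicate 3 held the fewest counts of the young samples, 5709327, with the highest TMM factor of all 7, 1.07. Aged replicate 4 held 8397956, within the range of the aged samples, with the lowest TMM factor, 0.936. Elane, the single neutrophil marker of 13 with a promoter region, had 14.6, 12.2 and 16.3 CPM in young and 10.6, 7.65, 11.2 and 17.1 CPM in aged samples, and the same samples led. The promoters of the other 12, among them S100a8, S100a9, Ly6g and Mpo, had no region. Clec4f, the Kupffer cell marker, had 2.22 to 2.65 CPM in young and 0.588 to 2.80 CPM in aged samples. The summed CPM of 8 stellate, endothelial and bile duct markers was 133 to 143 in young and 101 to 154 in aged samples, with aged replicate 4 the highest. That of 15 hepatocyte markers was 958 to 1103 in young and 1157 to 1398 in aged samples, with aged replicate 3 the highest. The part of other cells in the spread was not tested.

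The same samples led most often at other positive acute phase genes. The 22 genes of a list that includes the fibrinogens, complement and metallothioneins had 101 regions at the gene body or within 10000 bp of it, apart from the 36. Regions of the other lists were counted in the same way. Young replicate 3 was the highest young sample in 68.3% of them, aged replicate 4 the highest aged sample in 53.5%, and both together in 42.6%. A region of Serpina3n, which encodes a protease inhibitor, at chr12:104413695-104415815 had 14.9, 19.5 and 46.5 CPM in young and 8.43, 5.49, 6.30 and 52.8 CPM in aged samples. The region over Mt2 and Mt1, which encode metal-binding metallothioneins, at chr8:94171171-94174505 had 30.9, 35.1 and 86.8 CPM in young and 22.1, 14.9, 25.0 and 116 CPM in aged samples. Both lay above the 99th percentile of spread. Not every region above it was led by aged replicate 4. At Fgg and Fga (chr3:83015221-83017302) aged replicate 1 had 142 CPM and aged replicate 4 had 120 CPM. At C3 (chr17:57194548-57196779) aged replicate 3 had 64.0 CPM and aged replicate 4 had 32.3 CPM. Negative acute phase genes, which fall in inflammation, had 59 regions, and there both samples led together in 11.9%. The share was 24.3% of 37 regions for receptors and clearance, 17.0% of 112 for cytokine receptors and signalling and 15.3% of 85 for transcription factors. Aged replicate 4 alone led in 64.9%, 54.5% and 40% of these, 53.5% of the other positive and 25.4% of the negative acute phase regions, so its lead was not confined to positive acute phase genes.

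**Figure D4:**
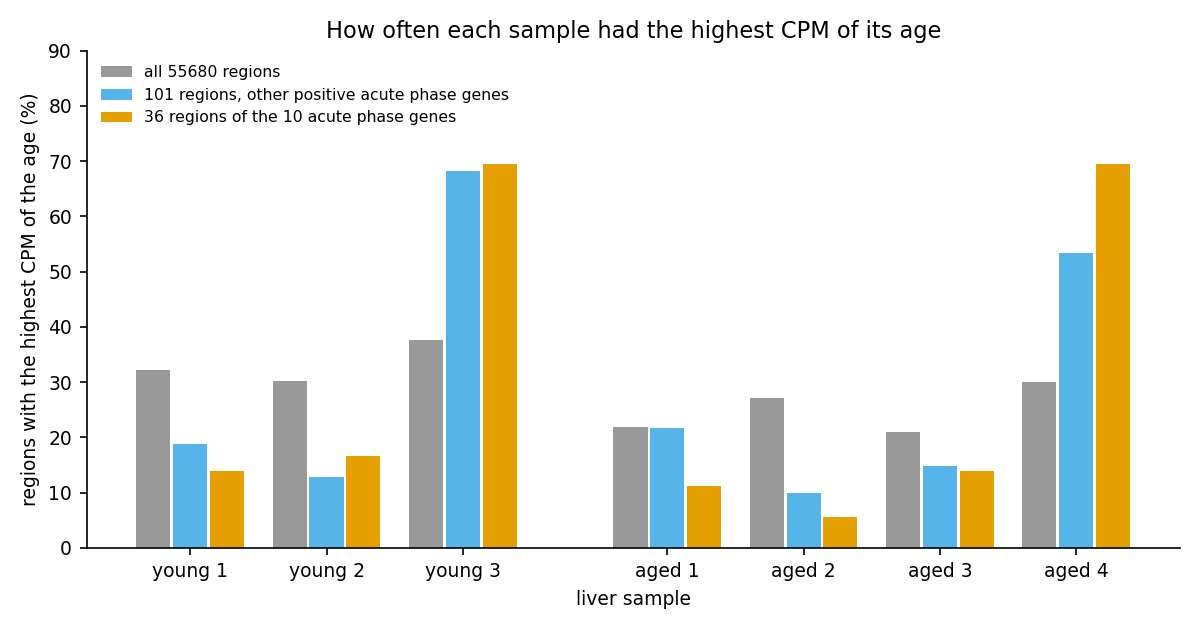
Share of regions (%) in which each of the 7 samples had the highest CPM of its age, for all 55680 regions (grey), 101 regions of other positive acute phase genes (light blue) and the 36 regions of the 10 acute phase genes (orange). Young replicate 3 and aged replicate 4 each lead in 69.4% of the 36 regions.

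The rest of the pathway was described by 1 promoter region for each gene of 5 lists. Of 67 genes with a promoter region, 11 became more accessible in aged liver and 0 less (edgeR, adjusted p under 0.05; 6.54% of all promoter regions changed). DESeq2 called 16 and 0 (2760 and 1931 of all 55680 regions). An unadjusted p under 0.05 gave 29 and 0 (24.6% of all regions, in either direction). Offsets on mean abundance left 1 and offsets on GC content gave 24. Without 1 sample the count was 1 (young replicate 1 or 2), 2 (aged replicate 1) or 3 (aged replicate 3), and 10 to 14 without any other. Of the marker promoters, 1 of 15 of hepatocytes (Apoa1, also a negative acute phase gene) rose and 0 of 8 of stellate, endothelial and bile duct cells passed edgeR's test (DESeq2 called 3 and 0, and an unadjusted p under 0.05 gave 7 and 2). The median log2 fold change was 0.26 for the former (13 above 0) and -0.29 for the latter, of which 1 was above 0 and 3 were lower in all aged than in all young samples. The part of the cells' shares in the rise was not tested.

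Of the other positive acute phase genes, 21 of 22 had a promoter region (not Hamp2), 5 rose and 0 fell (median log2 fold change 0.16). The fibrinogen chain genes Fga and Fgg, which encode the clotting protein, rose by 0.87 and 0.90 on the log2 scale (edgeR, adjusted p = 0.0130 and 0.0143). Fga had 30.8, 32.9 and 33.5 CPM in young and 78.6, 53.1, 45.5 and 57.0 CPM in aged samples, with no overlap. Cp, which encodes the copper-carrying ferroxidase ceruloplasmin, rose by 1.16, Apcs, the pentraxin next to Crp on chromosome 1, by 0.80, and C3, the central complement component, by 0.51 (edgeR, adjusted p = 0.0147, 0.0370 and 0.0489). Apcs had 17.9, 12.8 and 24.3 CPM in young and 28.3, 27.5, 29.2 and 39.2 CPM in aged samples, with no overlap. Young replicate 3 was the highest young sample at all 5 of these promoters, and the highest aged sample was aged replicate 1 at Fga, Fgg and Cp, aged replicate 3 at C3 and aged replicate 4 at Apcs. Orm3, beside Orm2, had a log2 fold change of -0.06 (edgeR, adjusted p = 0.896).

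Of the 9 negative acute phase genes all had a promoter region, 3 rose and 0 fell (median 0.32). These were Igf1, the growth factor, at 0.97, Ahsg, which encodes fetuin-A, at 0.57, and Apoa1, the main protein of high density lipoprotein, at 0.53 (edgeR, adjusted p = 0.0196, 0.0204 and 0.0331). Positive and negative acute phase genes thus both held promoters that rose. Alb, which encodes albumin, had a log2 fold change of 0.13 (edgeR, adjusted p = 0.695).

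Among the 18 genes of cytokine receptors and signalling, 1 rose and 0 fell (median 0.14). It was Il6st, which encodes the shared signalling chain of the interleukin 6 receptor family, with 63.9, 70.5 and 68.2 CPM in young and 87.4, 82.6, 87.3 and 93.4 CPM in aged samples (log2 fold change 0.38, edgeR, adjusted p = 0.0484). Stat3, which encodes the factor below it, had a log2 fold change of 0.49 with overlapping ages (edgeR, adjusted p = 0.0960). Among 16 transcription factors 2 rose and 0 fell (median 0.25). Onecut1 rose by 0.88 and Foxa2 by 0.49 (edgeR, adjusted p = 0.0120 and 0.0354), both liver-enriched factors. Of 7 genes for receptors and clearance, 3 had a promoter region and 0 passed the test, although DESeq2 called 2 and an unadjusted p under 0.05 gave 2. Lrp1, which encodes the receptor that takes up the haem-hemopexin complex, had the largest log2 fold change of them, 0.54 (edgeR, adjusted p = 0.0697), and Hmox1, which encodes the haem-degrading enzyme, the smallest, -0.07 (edgeR, adjusted p = 0.817). Cd163, the haptoglobin-haemoglobin receptor, Slc22a17, Fpr2 and Fcgr1 had none.

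**Figure D5:**
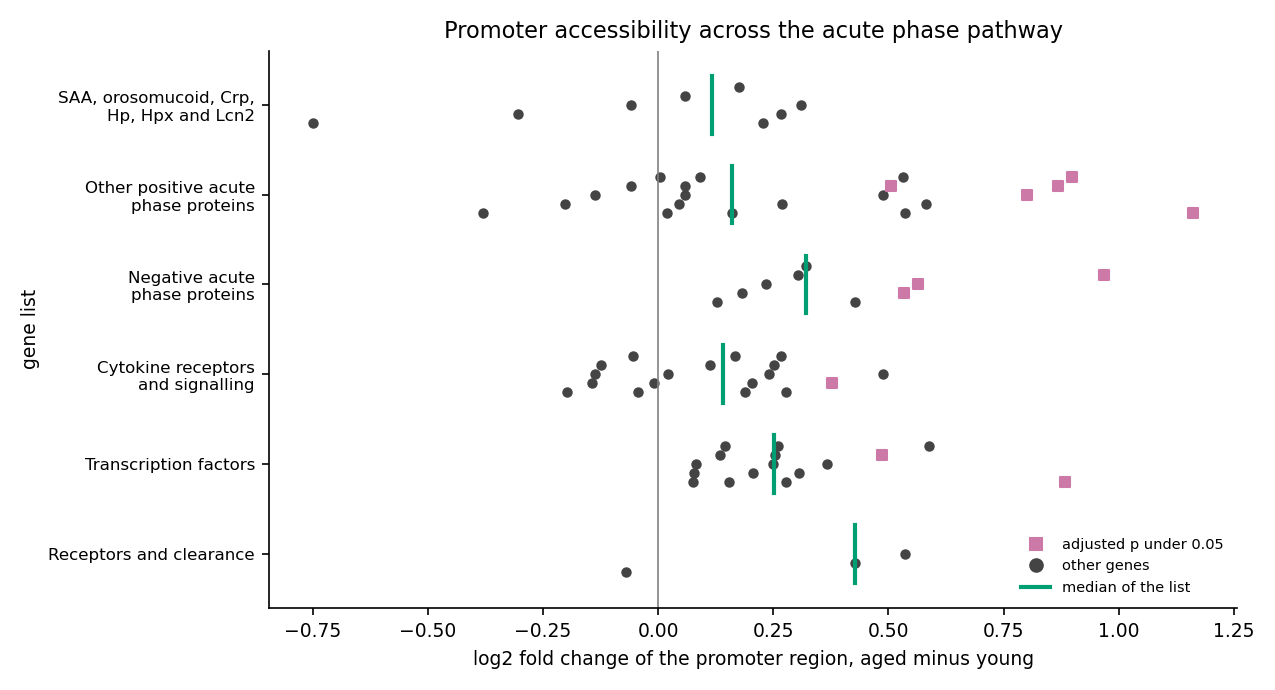
Log2 fold change of the promoter region between aged (n = 4) and young (n = 3) liver for the 8 acute phase genes with a promoter region and for the genes of 5 pathway lists, in which each symbol is a gene, squares passed edgeR's test and the green line is the median. The 11 squares lie above 0, and the 8 acute phase genes hold none.

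The promoters most like the 8 acute phase promoters were sought by Pearson's r with their mean log2 CPM over the 7 samples. They were those of Pdcd4 (r = 0.985), Man2a2 (0.977), Itpr2 (0.967), Tshz2 (0.964) and Mgat5 (0.958). These values describe the best matches among all promoter regions over 7 samples, which share libraries, and carry no test.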

How the data were processed

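Raw counts of reads in 55680 consensus regions of GRCm38 were deposited by the authors without normalization. Per the labels and methods, reads were trimmed (cutadapt 1.13), aligned (Bowtie2 2.4.1), filtered for mapping quality, duplicates and mitochondrial origin, and counted in MACS2 2.2.7 peaks (featureCounts). Whether reads were shifted for the transposase offset is not given in the sources used here.

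The ages were compared with edgeR 4.0.16 in R 4.3.3 (TMM, two-sided quasi-likelihood test on age alone, Benjamini-Hochberg over all regions, 0.05). CPM were TMM-scaled, and log2 CPM had a prior count of 2. Promoter regions overlapped 200 bp on either side of a GENCODE M21 TSS, and the most accessible one stood for its gene. Copies were sought with BLAST 2.17.0. Alternatives were DESeq2 1.42.0, limma 3.58.1 (voom), other scalings, filters, flanks and sample sets. The fit was tested on simulated data. Members and lists were chosen with earlier results of these data known. Named were own promoters, regions that passed or had no overlap of the ages, and in each list up to 5 promoters that passed, otherwise the largest and smallest change. Regions named for their spread, and Orm3, Alb, Stat3, Serpina3n and Mt2, were chosen after values were seen. No same-age pair agreed within sampling noise, as one library deposited under both names would (chi-square per degree of freedom 2.47 to 6.10). This says nothing on shared animals. Figures were drawn with matplotlib 3.10.9.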

Additional observations from a re-analysis of the deposited data

Results flagged for a closer look

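Aged samples of each of the 36 regions were searched for a sample far from the other 3, which chance gives in about 1 of 20 groups. It was found in 3 of 36, near that share, and the regions are not independent. At the Lcn2 promoter, aged replicate 4 had 54.09 CPM and the others 14.2 to 16.3. At the 3′ end of Hp, aged replicate 4 had 104.9 CPM and the others 39.4 to 44.1. In the intronic Crp region at chr1:172709509-172710370, aged replicate 1 had 6.853 CPM and the others 8.63 to 8.78, a narrow gap in a region of 37 to 255 counts per sample.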

How the results depend on the processing

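Of the 36 regions, 1 lost accessibility. That count was 2 with total counts (2931 of all regions) and with limma voom (2383), 8 with the replicate block (2531), 5 without both young replicate 3 and aged replicate 4 (3295; chosen after seeing the data), and 0 with offsets on mean abundance (558), with aged replicates 1 and 3 (693) or 2 and 3 (1107) summed, at an adjusted p under 0.01 and in gene bodies alone. Without 1 replicate it ran from 0 to 6, the 6 without aged replicate 4. The count of regions that gained accessibility was 0, and 1 (Orm1) without young replicate 3 or without both. The 11 changed pathway promoters became 7 with total counts, 1 with offsets on mean abundance, 24 with offsets on GC content, 6 with at least 10 counts in every sample or aged replicates 3 and 4 summed, 4 with aged replicates 1 and 3 summed, 0 at 0.01 and 1 to 14 without 1 replicate. The cause of these moves was not tested.

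The log2 fold change at Lcn2 was -1.03 with the replicate block and -0.93 without both samples, both past the test, and ran from -1.04 to -0.13 without 1 replicate, past the test without aged replicate 4. At Saa1 it was -1.07 with the replicate block, past the test. At Orm1 it was 0.43 without both samples, past the test, and 0.16 to 0.54 without 1 replicate, past the test without young replicate 3. Offsets on mean abundance gave 0.0056 at Orm1 and total counts 0.19, neither past the test. Signs turned at Saa4 (0.023 with GC offsets, 0.032 with voom, 0.12 without both, -0.20 to 0.12 without 1 replicate), at Hpx (-0.054 with abundance offsets) and at Hp (-0.066 with total counts, -0.18 with abundance offsets, -0.022 with aged replicates 2 and 4 summed, -0.093 with the replicate block, -0.11 to 0.31 without 1 replicate), none of which passed the test. Total counts moved the median of all regions from -0.04 to -0.15 and that of the 36 from -0.03 to -0.15. The replicate block drops aged replicate 4, and same-numbered samples did not deviate together (correlations -0.119, 0.056 and 0.030), so numbers were not taken as pairs.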

Other observations

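By place, the median log2 fold change was 0.12 for the 8 own promoters, -0.22 for the 11 regions in the gene's own body, 0.03 for the 6 promoters of neighbouring genes, -0.52 for the 2 regions in the body of a neighbouring gene and -0.03 for the 9 regions between genes. The median SD within an age was 0.58 in own gene bodies, 0.27 at own promoters and 0.15 at promoters of neighbouring genes, with 0.28 over all regions. These medians were looked at after the values were known and carry no test.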
